A study of Mus musculus with 9 samples.

Results

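The genes described here are those of the red blood cell that the arrays name: Hba-a1 and Hbb-b1, which encode the adult alpha and beta chains of haemoglobin, Alas2, the erythroid form of the enzyme that starts haem synthesis, and Slc4a1, the anion exchanger known as band 3 of the red cell membrane. They were taken as every probe listed under 1 of 5 symbols, and 4 of the 39464 probes of the table met this rule, 1 for each of 4 of the 25918 genes named. No probe was listed as Hbb-b2, the other adult beta chain gene, which is therefore not analysed here. Whole-lung RNA of BALB/c mice of about 12 weeks was profiled on 9 Agilent arrays of 2 colours, 4 labelled as lungs treated with saline (PBS) and 5 as lungs challenged with ovalbumin (OVA), an allergen used to provoke allergic airway inflammation. By the labels, the Cy5 channel (channel 2) of each array held the RNA of 1 lung, and the Cy3 channel (channel 1) held a pool of the PBS-treated lungs on all arrays. The labels state no adjuvant, route, time or number of challenges, nor whether different lungs are from different mice. The p-values below therefore measure the spread between these samples, which may be partly technical. By the labels, each PBS array also set a PBS-treated lung against a pool of such lungs. Ratios of the 4 PBS arrays would then centre near 0 and may not be independent of each other. Between arrays, log2 ratios of channel 2 over channel 1 correlated at -0.266 to 0.105 for PBS and at 0.702 to 0.821 for OVA.

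Mature red cells of mammals have no nucleus and make no new RNA. The youngest of them, reticulocytes, leave the bone marrow with the RNA left from their last precursor stages, and adult haemoglobin, Alas2 and Slc4a1 transcripts are among the most red-cell-restricted of that RNA. The lung is filled with blood, so RNA of whole lung holds RNA of the blood in its vessels. In these bulk samples, the number of red cells in the tissue and the RNA per red cell cannot be told apart. The labels do not say whether the lungs were flushed free of blood.

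The switch to red cell transcription runs through GATA1, which binds GATA sites, and KLF1, which binds CACCC boxes. The promoters of Alas2 and Hba-a1 are shown because they are those of the members that the RefSeq table of GRCm38.p6 holds (2 of 5). It also holds those of 3 of the 5 red cell list genes that were at least 2-fold lower (below). Of these, Epb42 and Hbb-bh2 are shown because they also moved with Alas2, and Cat, which did not, is only described. Each runs from 250 bases before to 50 after the gene's start, 5′ to 3′ on the strand of the gene, with the letters GATAA and CACCC and their reverse complements TTATC and GGGTG in capitals. The regions are chrX:150547167-150547466 (plus strand) for Alas2, chr11:32283422-32283721 (plus strand) for Hba-a1, chr2:121036828-121037127 (minus strand) for Epb42 and chr7:103840472-103840771 (minus strand) for Hbb-bh2.
Alas2: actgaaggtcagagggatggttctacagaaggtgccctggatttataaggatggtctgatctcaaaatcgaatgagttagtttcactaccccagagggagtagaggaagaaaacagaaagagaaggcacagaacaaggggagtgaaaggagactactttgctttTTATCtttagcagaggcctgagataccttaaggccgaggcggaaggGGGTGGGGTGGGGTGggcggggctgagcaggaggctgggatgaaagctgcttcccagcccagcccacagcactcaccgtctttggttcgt
Hba-a1: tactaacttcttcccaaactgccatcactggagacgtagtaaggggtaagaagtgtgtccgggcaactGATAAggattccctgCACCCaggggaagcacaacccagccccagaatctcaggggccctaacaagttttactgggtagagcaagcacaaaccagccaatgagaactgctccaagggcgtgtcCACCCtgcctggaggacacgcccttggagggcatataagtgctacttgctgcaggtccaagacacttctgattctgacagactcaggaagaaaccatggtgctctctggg
Epb42: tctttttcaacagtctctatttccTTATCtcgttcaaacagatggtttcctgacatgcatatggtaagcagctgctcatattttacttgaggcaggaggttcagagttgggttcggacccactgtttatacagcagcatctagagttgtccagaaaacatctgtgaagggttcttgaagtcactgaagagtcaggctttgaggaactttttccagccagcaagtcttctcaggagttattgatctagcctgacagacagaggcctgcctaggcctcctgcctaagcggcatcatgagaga
Hbb-bh2: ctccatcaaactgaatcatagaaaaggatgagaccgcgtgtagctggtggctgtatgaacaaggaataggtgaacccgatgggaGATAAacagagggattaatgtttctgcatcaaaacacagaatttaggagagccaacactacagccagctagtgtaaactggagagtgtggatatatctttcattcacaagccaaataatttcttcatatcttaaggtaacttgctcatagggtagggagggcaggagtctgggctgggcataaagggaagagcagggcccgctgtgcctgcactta
Each of the 4 promoters shown held the GATAA letters once, at 86 bases before the start in Alas2, 182 in Hba-a1, 226 in Epb42 and 166 in Hbb-bh2. The CACCC letters stood 3 times in a row in Alas2, between 40 and 30 bases before its start, and 2 times in Hba-a1, at 167 and 60. Neither Epb42 nor Hbb-bh2 held them in this window. Cat, the other red cell list gene at least 2-fold lower whose promoter the table holds (3 of 5 such genes), held CACCC 4 times and GATAA not at all. Of 32851 promoters of this length, 25.4% held GATAA, 57.5% held CACCC and 12.6% held both, on either strand and with overlaps counted, so these letters are common and mark no binding site by themselves.

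The deposited intensities are on a scale of the authors' own, with a median of 0.139 over all probes and a highest value of 70.2. The ratio of channel 2 over channel 1 of each array was compared between OVA and PBS arrays for 39413 probes with limma. Of these 33.9% passed an adjusted p under 0.05, 15% higher and 18.9% lower on the OVA arrays. All directions below are those of this ratio, where "lower" means a lower ratio on the arrays labelled OVA. The single channels go against the labels for Alas2 and Slc4a1, as shown with their values, and for many but not all of the other genes called, and the direction between challenged and control lungs is therefore not settled. Of the lung markers checked, Sftpb and Sftpc, surfactant proteins of alveolar type 2 cells, had a value on 1 OVA array each, at 41.1 and 36.3 in channel 1. Sftpd, another surfactant protein, had values on the 5 OVA arrays alone, with log2 ratios between 0.44 and 1.15. Of 5 lung markers that could be tested 3 were lower and 1 higher, where 22.3% and 16.9% of all genes were. The lower ones were Tmem100 (log2 difference -1.17, adjusted p = 2.75e-05, channel 1 means of 13 on the PBS and 26.2 on the OVA arrays), Napsa (-0.37) and Hopx (-0.33), and Foxj1 of ciliated cells was higher (0.41). Tmem100 alone of these 4 kept its call with quantile normalised ratios (adjusted p = 0.00504). The part of such lung cells in the red cell values was not tested.

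The ratio of Alas2 was lower on the OVA arrays by 2.24-fold, and that of Slc4a1 by 1.81-fold. Both passed the test over all probes, and both changes came from channel 1, which by the labels holds the same pool on every array. The haemoglobin genes themselves could hardly be compared, since Hba-a1 was blank on 8 arrays and Hbb-b1 had a value on only 1 PBS array. Of 69 other genes in lists of globins and red cell genes, 28 were lower and 14 higher, where 22.3% and 16.9% of all genes were (39.2% called), and some of those lower, among them Epb41, Epb42 and the beta-like globin Hbb-bh2, followed Alas2 from array to array within the groups.

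On the PBS arrays, Alas2 had a channel 1 intensity of 1.09, 1.16, 1.13 and 1.05 in replicates 1 to 4, and a channel 2 intensity of 1.12, 0.8, 1.63 and 0.96. On the OVA arrays its channel 1 was at 2.69, 2.13, 2.79, 3.04 and 2.24 in replicates 1 to 5, and its channel 2 at 1.16, 1.07, 1.12, 1.13 and 1.14. Channel 1 of each OVA array thus lay above every other value of this probe, while channel 2 of the OVA arrays fell inside the range of the PBS lungs. The log2 ratio was 0.04, -0.54, 0.53 and -0.13 on the PBS arrays, and -1.21, -0.99, -1.32, -1.43 and -0.97 on the OVA arrays. The groups did not overlap, as for 29.2% of all probes in either direction and 16.3% with the OVA arrays below, and channel 1 of all OVA arrays was above that of all PBS arrays for 11.8%. The log2 difference was -1.16 ± 0.20 SE (n = 5 against 4, limma, adjusted p = 0.00257), and 0.269% of the probes tested were as low. It was the only member at least 2-fold changed, as 2.29% of all probes were (1.82% higher, 0.472% lower).

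**Figure D1:**
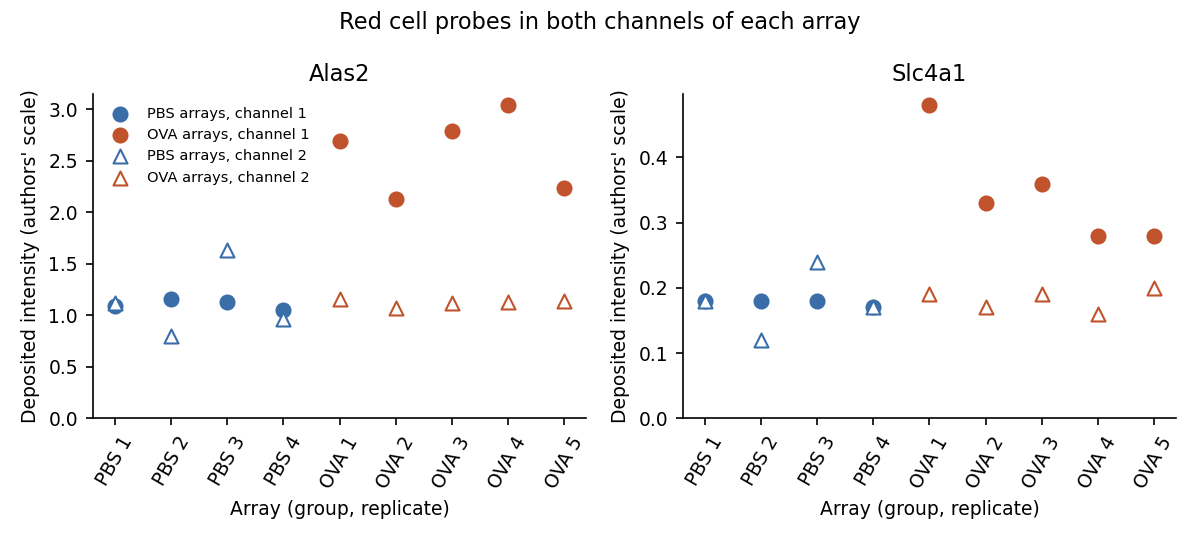
Deposited intensity of Alas2 (left) and Slc4a1 (right) on each of the 9 arrays, with channel 1 as filled circles and channel 2 as open triangles, blue for PBS and orange for OVA arrays, and both axes from 0. Channel 1 of the OVA arrays (2.13 to 3.04 for Alas2 and 0.28 to 0.48 for Slc4a1) stands above channel 1 of the PBS arrays (1.05 to 1.16 and 0.17 to 0.18), while the triangles of PBS replicates 2 and 3 stand below and above the other PBS arrays for both genes.

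Slc4a1 was a dim probe, brighter than 60.5% of all probes against 85.6% for Alas2. Its channel 1 was at 0.18, 0.18, 0.18 and 0.17 on PBS replicates 1 to 4 and its channel 2 at 0.18, 0.12, 0.24 and 0.17. On OVA replicates 1 to 5, channel 1 was at 0.48, 0.33, 0.36, 0.28 and 0.28 and channel 2 at 0.19, 0.17, 0.19, 0.16 and 0.2. As for Alas2, channel 1 of the OVA arrays was higher than all other values of the probe, and PBS replicates 2 and 3 were the lowest and the highest PBS lungs in channel 2. The log2 ratios were 0, -0.58, 0.42 and 0 on the PBS arrays and -1.34, -0.96, -0.92, -0.81 and -0.49 on the OVA arrays. The groups overlapped by 1 array, since OVA replicate 5 lay above PBS replicate 2. The log2 difference was -0.86 ± 0.22 SE (limma, adjusted p = 0.0179), and 1.08% of all probes were as low. Intensities are given in steps of 0.01, so the ratio of OVA replicate 5 could lie between -0.55 and -0.42 and that of PBS replicate 2 between -0.69 and -0.49.

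Both calls were lost when the ratios were quantile normalised, a step that gives every array the same spread of ratios (adjusted p = 0.0721 for Alas2, with a log2 difference of -1.02, and 0.304 for Slc4a1, at -0.63). Under it 13.7% of all probes were called, 6.79% higher and 6.89% lower. With the sign of each OVA array's ratio turned, as they would be if the dyes of these arrays were the other way round, the log2 difference was 1.21 for Alas2 (adjusted p = 0.00215) and 0.94 for Slc4a1 (adjusted p = 0.0119), and 32.4% of all probes were called, 18.5% higher and 14% lower.

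The channels were then tested apart with limma. In channel 1, Alas2 was 2.31-fold higher on the OVA arrays than on the PBS arrays (95% interval 1.93 to 2.76, adjusted p = 7.61e-05) and Slc4a1 was 1.91-fold higher (1.5 to 2.43, adjusted p = 0.00204). Of all probes 21.1% were called in channel 1, 11.7% higher and 9.44% lower. In channel 2, which by the labels holds the lungs compared, the log2 difference of Alas2 was 0.05 (95% interval -0.36 to 0.45, adjusted p = 0.962) and that of Slc4a1 was 0.07 (-0.33 to 0.47, adjusted p = 0.949). For the intensities of this channel alone, the intervals leave room for changes of up to 1.36-fold and 1.39-fold. Changes of the size seen in channel 1 lie outside them. Over all genes, channel 2 gave 2 called probes of 39413, or 0.00507%, with 1455 at an unadjusted p under 0.05. A channel with almost no call for any gene, against its label, sets no limit on the difference between challenged and control lungs.

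The haemoglobin probes were among the brightest of the array. Hbb-b1 was brighter than 99.8% of all probes and Hba-a1 than 99.7%, on the arrays where they had a value. The cells of Hbb-b1 were blank on 4 arrays and those of Hba-a1 on 8, and of all 39464 probes 138 were blank on at least 1 array, with a median intensity of 37.0 where given. Blank cells are not zeros, and no source used here says why they were left blank. The only value of Hba-a1 was on OVA replicate 4, at 33.53 in channel 1 and 30.91 in channel 2, a log2 ratio of -0.12. This is a single array, and no comparison of Hba-a1 can be made. Hba-a1 has a near-identical copy, Hba-a2, and adult beta chain genes are close copies of each other too, so a probe may read more than its own gene.

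Hbb-b1 had values on PBS replicate 2, at 41.12 in channel 1 and 33.64 in channel 2, and on 4 OVA arrays. On OVA replicates 1, 2, 4 and 5 channel 1 was at 36.01, 37.76, 32.98 and 39.97, and channel 2 at 29.19, 32.09, 28.06 and 31.77. Its log2 ratios on those arrays were -0.30, -0.23, -0.23 and -0.33, and that of the PBS array was -0.29, inside their range. With 1 PBS array no test between groups was made. Over the OVA arrays by themselves the ratio lay below 1 (log2 ratio -0.28 ± 0.05 SD, n = 4, limma against 0, adjusted p = 0.00265, where 39% of probes passed, 17% above and 22% below), but the PBS array stood at the same level. On the same PBS array Alas2 was at -0.54, and on those OVA arrays between -1.43 and -0.97. In channel 1 Hbb-b1 read 32.98 to 41.12, and the highest value of any probe on those arrays was 39.8 to 42.94. Whether ratios are compressed near the top of the scale was not tested, so the values of Hbb-b1 allow no comparison with those of Alas2.

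**Figure D2:**
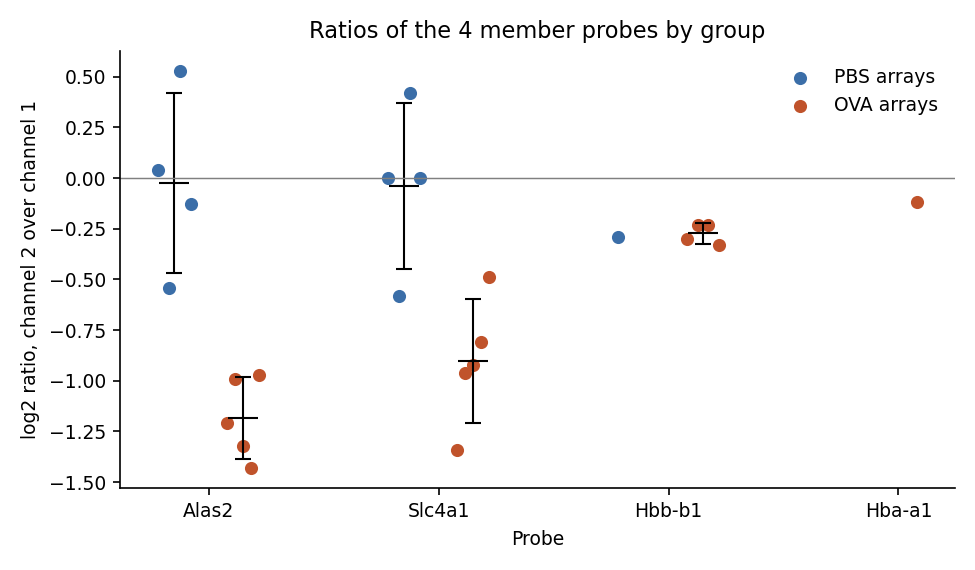
Log2 ratio of channel 2 over channel 1 for the 4 member probes, with 1 point for each array that has a value, blue for PBS and orange for OVA, and black bars for the mean ± SD where a group has at least 2 values. Alas2 separates the groups (-0.54 to 0.53 against -1.43 to -0.97), Slc4a1 overlaps at 1 array, Hbb-b1 has 1 PBS value inside the range of 4 OVA values and Hba-a1 has a single value.

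Alas2 and Slc4a1 varied much more among the PBS lungs than most genes did. The SD of the log2 ratio over the 4 PBS arrays was 0.44 for Alas2 and 0.41 for Slc4a1, against a median of 0.08 over all probes, and larger than for 96.8% and 96.5% of them. Among probes brighter than the median, both exceeded 99.5%. By the authors' deposited p-value of each array, Alas2 differed between the lung and the pool on PBS replicate 2 (p = 0.000761, lower) and on PBS replicate 3 (p = 0.00159, higher) but not on PBS replicates 1 and 4 (p = 0.84 and 0.48). On the OVA arrays its deposited p-value lay between 2.55e-13 and 6.32e-07 (the largest on OVA replicate 5). On the log2 scale, the spread of Alas2 on the OVA arrays was in channel 1 (SD 0.218) and not in channel 2 (SD 0.0436), whereas on the PBS arrays it was in channel 2 (SD 0.436) and not in channel 1 (SD 0.0626). Slc4a1 had the same order, with 0.321 and 0.133 on the OVA arrays and 0.410 and 0.0412 on the PBS arrays.

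After the mean of each group was subtracted from the ratios, Alas2 and Slc4a1 correlated at r = 0.74 over the 9 arrays. Among the PBS arrays, replicate 2 was the lowest and replicate 3 the highest for both genes. Among the OVA arrays, both were highest on replicate 5, but Alas2 was lowest on replicate 4 (-1.43) and Slc4a1 on replicate 1 (-1.34). The correlation was not taken for each group apart. The r of 0.74 and those that follow describe these arrays, which share dyes, pool and scaling, and carry no test. Of 25175 genes, 3.96% reached r of 0.7 with Alas2 and 2.07% with Slc4a1. By the likeness rule, the genes most like Alas2 included Jup (plakoglobin, a junction protein, r = 0.983), Akr1c14 (an aldo-keto reductase, r = 0.968), Dcaf12 (a substrate receptor of a ubiquitin ligase, r = 0.961) and Mrpl27 (a mitochondrial ribosomal protein, r = 0.953). Those most like Slc4a1 were Rex1bd (listed as 2810428I15Rik, r = 0.962), Rpl27a-ps2 (listed as Gm9339, r = 0.948), Glud1 (glutamate dehydrogenase, r = 0.947), 4933434E20Rik (r = 0.941) and Gm7691 (r = 0.94). The coarse steps of Slc4a1 limit what its list can show. Of the genes most like Alas2, Jup (log2 difference -1.18 ± 0.19 SE, adjusted p = 0.00181), Akr1c14 (-0.95 ± 0.06, adjusted p = 1.49e-05) and Dcaf12 (-0.50 ± 0.07, adjusted p = 0.000746) were lower on the OVA arrays, and Mrpl27 was at -0.10 ± 0.08 (adjusted p = 0.342).

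Of the 69 tested genes in 5 lists drawn up around the red cell (other globins, haem synthesis, membrane and skeleton, transcription factors and other erythroid genes), 28 were lower, 14 higher and 27 did not pass. The lists also hold genes made mainly or also elsewhere, such as Ngb, Alas1 and Cat, which are counted among the 28. That is 60.9% called, against 39.2% of all genes read by their brightest probe, of which 22.3% were lower and 16.9% higher. A raised share was not particular to the red cell lists. Of the other lists below, 61.5% of platelet and megakaryocyte, 63.6% of haem and iron, 83.3% of macrophage and 85.7% of endothelial genes were called. For neutrophil genes the share was 36.4%. The median log2 difference of the 69 genes was -0.09, against -0.02 over all genes. At least 2-fold lower were 5 of them and higher 1, where 0.586% and 2.45% of all genes were (3.04% in all). With quantile normalised ratios 9 were lower and 4 higher, where 16.3% of all genes were called, 8.36% lower and 7.93% higher. In channel 1 alone 20 were higher and 9 lower on the OVA arrays, with 25.4% of all genes called (14.5% higher, 10.9% lower), and 19 of the 28 genes lower in the ratio were higher in channel 1 and 9 of the 14 higher in the ratio were lower there. In channel 2 none was called (limma, with 1455 of all probes at an unadjusted p under 0.05).

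**Figure D3:**
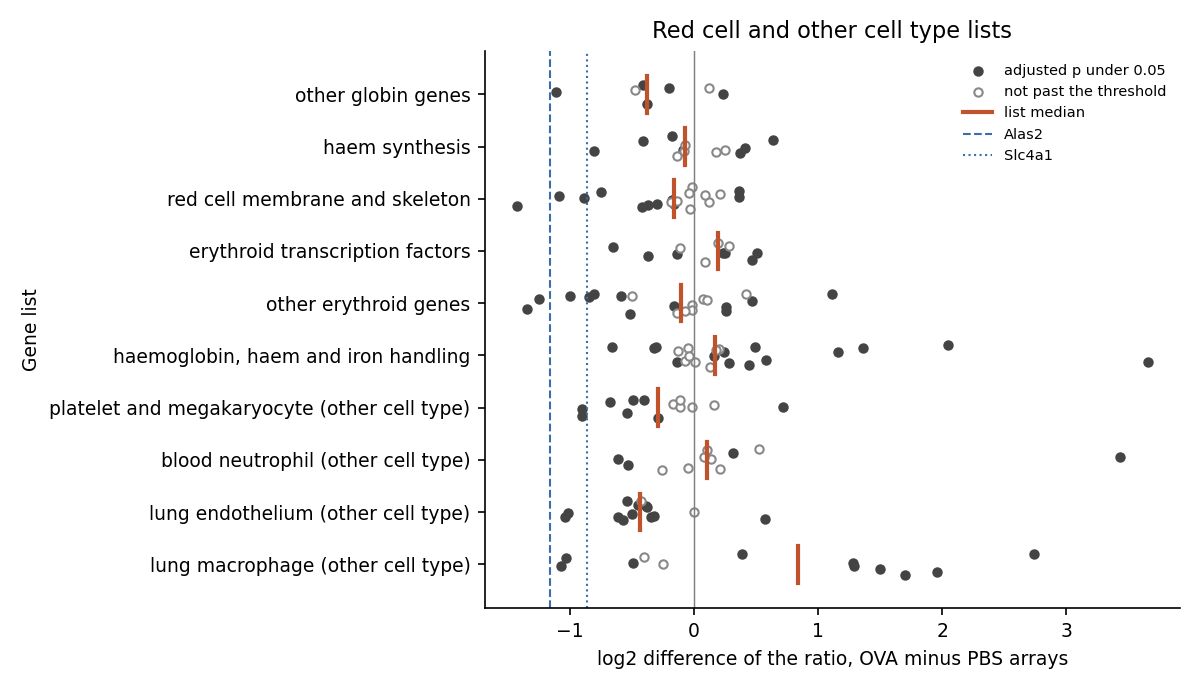
Log2 difference of the ratio between OVA and PBS arrays for each tested gene of 10 lists, filled where the adjusted p was under 0.05, with the median of each list as an orange bar and the values of Alas2 (dashed) and Slc4a1 (dotted). The red cell genes lie on both sides of 0 (28 lower and 14 higher past the threshold), Epb42 and Cat are among those below Alas2, and the macrophage list has the highest median at 0.83.

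Among the other globins, 4 of 7 tested genes were lower and 1 was higher, with a median log2 difference of -0.38. Hbb-bh2 (listed as Gm5736), a beta-like globin gene of the same cluster as Hbb-b1, was the lowest. Its channel 1 was at 0.35, 0.39, 0.34 and 0.35 on PBS replicates 1 to 4 and at 0.86, 0.61, 0.81, 0.72 and 0.8 on OVA replicates 1 to 5, without overlap. Its channel 2 read 0.4, 0.3, 0.43 and 0.33 on PBS replicates 1 to 4, and 0.37, 0.3, 0.37, 0.28 and 0.48 on the arrays of challenged lungs by label, with overlap. The log2 difference of the ratio was -1.11 ± 0.17 SE (adjusted p = 0.00128; 0.0547 with quantile normalised ratios). Hbq1a (listed as Hbq1), a theta globin, was 1.33-fold lower (adjusted p = 0.00779) and Ngb, neuroglobin of nerve cells, 1.3-fold lower (adjusted p = 0.000338). Neither call held after quantile normalisation (adjusted p = 0.0828 and 0.051). The embryonic Hba-x was lower by little (log2 difference -0.20 ± 0.03 SE), without passing in channel 1 (-0.17, adjusted p = 0.477) or channel 2 (-0.37, adjusted p = 0.87), and Hbb-bh1, an embryonic beta-like chain, had values near the lowest step of the scale (0.12 ± 0.42 SE, adjusted p = 0.875). Cygb, cytoglobin of fibroblasts, was higher (0.23 ± 0.04 SE, adjusted p = 0.00161; 0.244 with quantile normalised ratios). Mb, myoglobin of heart and skeletal muscle, was at -0.48 ± 0.44 SE (adjusted p = 0.454), and its lowest OVA ratio was that of replicate 2, at -1.46.

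Of 12 haem synthesis genes, 4 were lower, 3 higher and 5 did not pass, with a median of -0.08. Fech, ferrochelatase, which inserts iron in the last step, was 1.75-fold lower (log2 difference -0.81 ± 0.07 SE, adjusted p = 7.82e-05; 0.0129 with quantile normalised ratios). Its channel 1 was between 0.23 and 0.27 on the PBS arrays and between 0.33 and 0.51 on the OVA arrays. Alas1, the form of the first enzyme used outside the red cell lineage, was at -0.41 ± 0.09 SE (adjusted p = 0.00887; 0.279 with quantile normalised ratios), with overlapping groups. Tmem14c, a mitochondrial porphyrin transporter, was higher at 0.64 ± 0.07 SE (adjusted p = 0.000241). Alad, the second enzyme, was at 0.25 ± 0.24 SE (adjusted p = 0.491).

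Of 19 genes of the red cell membrane and skeleton, 9 were lower, 2 higher and 8 did not pass, with a median of -0.16. Epb41 (listed as Epb4.1), protein 4.1, which ties spectrin to actin and is made in many tissues, was 1.85-fold lower (adjusted p = 6.89e-05; 0.0264 with quantile normalised ratios). Epb42 (listed as Epb4.2), which binds band 3 to the skeleton, was 2.69-fold lower (adjusted p = 0.00661; 0.0751 with quantile normalised ratios). Its intensities were only 0.02 to 0.06 in steps of 0.01, so its fold is not exact. Sptb (listed as Spnb1), beta spectrin, was lower at -0.75 ± 0.23 SE (adjusted p = 0.0385; 0.246 with quantile normalised ratios), with OVA replicate 2, as for Mb, at -1.46 and the other OVA arrays between -0.81 and -0.50. It did not pass in channel 1 alone (adjusted p = 0.0973). Ank1, ankyrin, was at -0.19 ± 0.11 SE (adjusted p = 0.244). A second, dimmer probe was at -0.44 for Epb41 and at -0.83 for Sptb.

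Of 20 other erythroid genes, 8 were lower, 4 higher and 8 did not pass, with a median of -0.11. Cat, catalase, which many lung cells make, was 2.37-fold lower (adjusted p = 7.3e-06). Tfrc, the transferrin receptor of all dividing cells and of haemoglobin-making precursors, was higher with a log2 difference of 1.11 (adjusted p = 0.000989), and at 0.72 with quantile normalised ratios (adjusted p = 0.0522). Its channel 1 was only 0.02 to 0.04 on the OVA arrays in steps of 0.01, so its fold is not exact. Ahsp, the chaperone of free alpha globin, and Car1, a carbonic anhydrase of red cells, were dim and did not pass (log2 difference 0.42 ± 0.20 and -0.02 ± 0.09 SE, adjusted p = 0.151 and 0.926).

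Of 11 tested erythroid transcription factors, 4 were higher, 3 lower and 4 did not pass, with a median of 0.19. Gata2, which acts in blood stem and mast cells and in endothelium, was lower at -0.65 ± 0.10 SE (adjusted p = 0.00121; 0.128 with quantile normalised ratios). Runx1 and Gfi1b act in early blood cells and in megakaryocytes, and Gfi1b also in red cell precursors. Both were higher, at 0.51 ± 0.06 and 0.47 ± 0.08 SE (adjusted p = 0.000224 and 0.00247; 0.013 and 0.171 with quantile normalised ratios). Klf1, the factor of the CACCC boxes, was at 0.09 ± 0.09 SE (adjusted p = 0.487) and Gata1 at 0.23 ± 0.08 (adjusted p = 0.0493; 0.96 with quantile normalised ratios). None of the 11 reached r of 0.7 with Alas2 within groups.

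Among the 69 genes, 12 (17.4%) reached r of 0.7 with Alas2 within groups, against 3.96% of all genes, and 9 reached it with Slc4a1, of which 8 were shared. Those that reached it with Alas2 included Epb41, Bnip3l (a mitophagy receptor needed to clear mitochondria from reticulocytes), Hbb-bh2, Trim10, Epb42, Bpgm (the enzyme of 2,3-bisphosphoglycerate), Hemgn, Fech, Ube2l6 and Ermap, with r between 0.927 and 0.704 for those named. All 12 were singled out after these values were seen. In the comparison of the groups, which the within-group deviations leave out, 10 of the 12 were lower and none higher (22.3% and 16.9% of all genes), while Hemgn and Ermap did not pass (adjusted p = 0.146 and 0.514). With quantile normalised ratios 3 of the 12 were called (16.3% of all genes). In channel 1 alone 10 of them were higher on the OVA arrays (14.5% of all genes). Several, such as Epb41, Bnip3l and Ube2l6, are also made outside red cells. Epb42, Ermap, Hemgn and Trim10 read at most 0.14 in steps of 0.01, so rounding limits what their r can show.

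**Figure D4:**
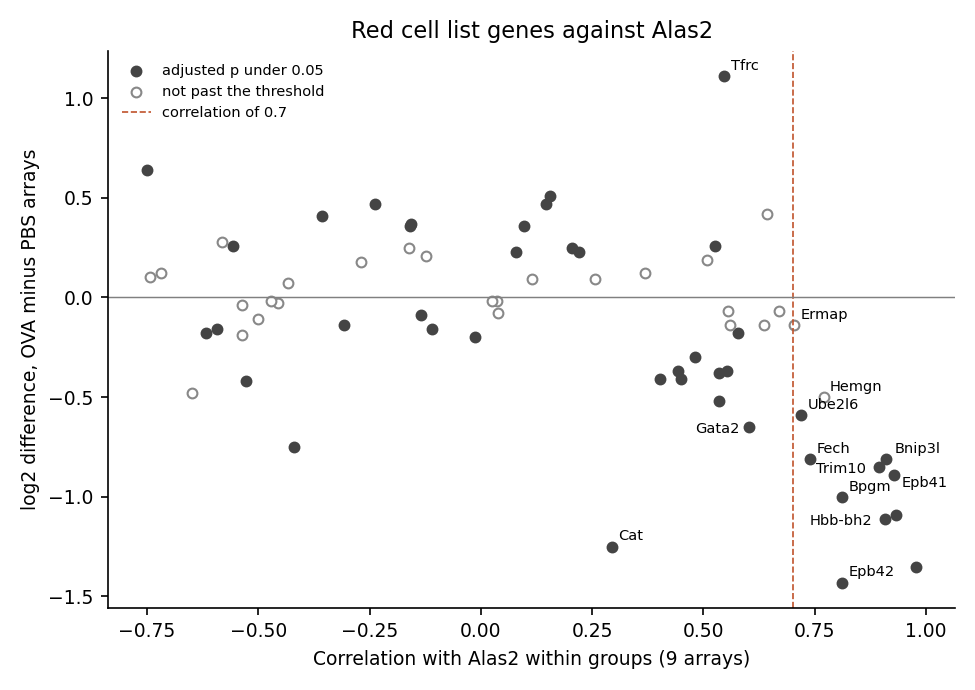
Each point is 1 of the 69 tested red cell list genes, placed by its correlation with Alas2 over the 9 arrays after group means were removed (horizontal axis) and by its log2 difference between OVA and PBS arrays (vertical axis), filled where the adjusted p was under 0.05. The genes to the right of the dashed line at 0.7 all have a log2 difference below 0, from -1.43 for Epb42 to -0.14 for Ermap, while Cat is as low without following Alas2 and Tfrc is higher.

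Of 22 tested genes that clear free haemoglobin or handle haem and iron, 10 were higher, 4 lower and 8 did not pass, with a median log2 difference of 0.17. Cd163, the macrophage receptor for haemoglobin bound to haptoglobin, was 12.7-fold higher (log2 difference 3.66 ± 0.15 SE, adjusted p = 1.22e-06). Its channel 1 averaged 20.9 on the PBS arrays and 1.82 on the OVA arrays, and its channel 2 averaged 20.4 and 22. Cp, ceruloplasmin, a ferroxidase, was 4.15-fold higher (adjusted p = 1.31e-06) and Hmox1, the inducible haem oxygenase, 2.57-fold higher (adjusted p = 2.2e-05). Slc40a1, the iron exporter ferroportin, was lower at -0.66 ± 0.06 SE (adjusted p = 8.27e-05). The plasma scavengers Hp, haptoglobin, and Hpx, haemopexin, did not pass (-0.13 ± 0.09 and 0.20 ± 0.13 SE, adjusted p = 0.331 and 0.311). None of the 22 reached r of 0.7 with Alas2 within groups. In channel 1 alone 9 of the 10 were lower, and the direction turns if the ratios of the OVA arrays are turned.

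Markers of other cells moved with the same contrast. Of all genes read by their brightest probe 22.3% were lower and 16.9% higher. Of 12 lung macrophage genes 7 were higher, among them Itgax (6.66-fold, adjusted p = 5.11e-08), Mrc1 (3.9-fold) and Msr1 (3.25-fold), and 3 were lower. Siglecf (listed as Siglec5, -1.07, adjusted p = 5.58e-05) and Lyz2 (-1.03, adjusted p = 0.000185) were among the lower. Their channel 1 means were 0.642 and 6.63 on the PBS and 1.28 and 12.8 on the OVA arrays. Over the list the summed channel 1 was 48.6 to 49.6 on the PBS arrays and 24.7 to 26 on the OVA arrays. Of 14 endothelial genes 11 were lower and 1 higher, with Kdr, Tek and Ramp2 at -1.04, -1.02 and -0.61, and their summed channel 1 was 109 to 118 on the PBS and 150 to 160 on the OVA arrays. Of 13 platelet and megakaryocyte genes 7 were lower and 1 higher, with Ppbp and Tubb1 both at -0.90 and Pf4 at 0.72, and the summed channel 1 of 7.05 to 7.49 and 6.93 to 8.0 overlapped. Of 11 blood neutrophil genes 2 were lower (S100a8 at -0.61 and S100a9 at -0.53) and 2 higher (Retnlg at 3.43 and Cxcr2 at 0.31), of which Retnlg alone kept its call with quantile normalised ratios, with a summed channel 1 of 25.3 to 27 and 26.4 to 38.5. The threshold was not passed by 2 macrophage, 2 endothelial, 5 platelet and megakaryocyte and 7 neutrophil genes. Cldn5 of endothelium was at 0.0 ± 0.07 SE (limma, adjusted p = 0.997). Second, dimmer probes of the genes named had log2 differences of 0.81 for Msr1, -0.13 for Ramp2, -0.15 for Tubb1, -0.59 for S100a8 and -0.63 for S100a9. Within groups, 1 endothelial, 1 macrophage and no platelet or neutrophil gene reached r of 0.7 with Alas2. The part of these cells in the red cell values was not tested.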

How the data were processed

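Per the labels' protocols, whole-lung total RNA went through 2 rounds of amplification and was hybridised in 2 colours. The submitters' processing notes name Agilent Feature Extraction 8.5.1.1. No source used here gives the authors' background correction or scaling. Per the file headers, the deposited table holds intensity values in 2 channels and a p-value per probe and array. A second deposited table of log10 ratios equals channel 2 over channel 1 (correlation 1, medians 0), so its scale and direction are known. The number of value columns of other samples was 0. The labels set channel 2 as Cy5.

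Log2 ratios of 5 OVA and 4 PBS arrays were compared in limma 3.58.1 (R 4.3.3), two-sided, without covariates, with Benjamini-Hochberg adjustment over 39413 probes having at least 2 values per group. Calls are at an adjusted p under 0.05. Each list gene was read by its brightest probe, named through RefSeq (GRCm38.p6), and 153 of 165 listed genes had a probe. Dimmer probes of the same gene could differ in the size of the change. Data were simulated for these 39413 probes with independent normal noise and few probes changed. Log2 changes of 0.5, 1 and 2 were recovered in 60.8%, 89.4% and 100% of cases, and 5.75% of the calls were false. In the real data a far larger share, 33.9%, was called, so these shares may not carry over. Named were all members, up to 3 called genes per list by size of change, and the 5 genes most like each member by correlation of group-centred ratios. Some genes that this rule names, or that the lists hold, are not reported here. Other genes were named after their values were seen. The members and lists were chosen with earlier results of these data known. The number of arrays limits the precision.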

Additional observations from a re-analysis of the deposited data

Results flagged for a closer look

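In channel 1 of the PBS arrays, Slc4a1 was at 0.17 on replicate 4 and at 0.18 on the other 3 arrays, so that replicate 4 stood apart from them. The gap is 1 step of the deposited decimals, and 12 such groups of values were looked at for Alas2 and Slc4a1, of which chance alone flags about 1 in 20.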

How the results depend on the processing

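Quantile normalised ratios gave 5389 called probes against 13352, 0 of the members against 2, and 13 of the red cell list genes against 42. Channel 2 alone gave 2, 0 and 0, and channel 1 alone gave 8319 probes. Asking for at least 2-fold as well left 903 probes, 1 member and 6 list genes. The log2 difference of Alas2 changed sign with channel 2 alone (0.05), channel 1 alone (1.21) and the OVA ratios turned (1.21), and that of Slc4a1 likewise (0.07, 0.93 and 0.94). The last follows from the turn itself. For the other results the cause was not tested. Without single arrays, between 11335 and 12691 probes, 2 members and between 35 and 42 list genes were called, and Alas2 lay between -1.33 and -0.98 and Slc4a1 between -1.04 and -0.71 (adjusted p up to 0.0497). With the replicate number as a block, 9142 probes passed, and Alas2 was at -1.21 (adjusted p = 0.0409) and Slc4a1 at -0.96 (adjusted p = 0.0439). Same-numbered arrays had deviations correlated between -0.126 and -0.0152, and different-numbered ones between -0.112 and 0.126. These values cannot show whether the numbers pair the arrays, since their sign would turn with the OVA ratios. Under the 19 settings other than the quantile, single-channel and turned ones, both members stayed lower and past the threshold. Rounding to 0.01 limits dim probes such as Slc4a1 and Epb42.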
